A study of Homo sapiens with 11 samples.

Results

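The cells described here are the mitotic cardiomyocytes of H9 cultures at day 42.5, that is, cardiomyocytes whose droplets held RNA of cell division genes. They were chosen by their counts. A barcode counted as a cardiomyocyte where TNNT2 (cardiac troponin T) and MYH6 (alpha myosin heavy chain) together made up at least 0.15% of its unique molecular identifiers (UMIs, each standing for 1 captured RNA molecule), and as a member where MKI67, TOP2A, CENPF and UBE2C summed to at least 3 UMIs. Barcodes also needed 1000 UMIs, 500 genes and at most 30% mitochondrially encoded UMIs. This gave 512 members among 13426 cardiomyocytes, 16397 barcodes passing the filters and 17346 barcodes in all. The comparison set was the 12177 cardiomyocytes of the same cultures with no UMI of the 4 genes, called marker-free below. A further 737 cardiomyocytes with 1 or 2 such UMIs belonged to neither set.

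H9 is an established line of human embryonic stem cells. The study compared chambered cardioids, which are self-organised heart organoids, grown with PD173074, the same kind of cardioids grown without PD173074, and a 2D culture. PD173074 is an inhibitor of fibroblast growth factor receptors; the labels do not give its dose, when it was added or for how long. Each group was 1 sample, because its deposited libraries were repeat runs of the same droplets: they shared 99.4% to 99.9% of barcodes with the first run, against at most 0.583% between groups. All values below come from the first run of each group unless a run is named. Those runs held 37765195 UMIs with PD173074, 23074862 without PD173074 and 46304366 in the 2D culture. The labels allow for more than 1 version of the droplet chemistry and do not say which library used which.

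Heart muscle cells divide readily in the embryo and fetus and largely stop soon after birth. A dividing cardiomyocyte copies its DNA in S phase, then builds a spindle, separates its chromosomes and cleaves its cytoplasm, and it has to take its contractile fibres apart, at least in part, to do so. Genes for the copying machinery are switched on by E2F factors ahead of S phase, and genes for the spindle and for cleavage later, in G2 and mitosis, by the MuvB complex together with MYBL2 and FOXM1, partly through a promoter element called the cell cycle genes homology region (CHR). RNA of such genes marks a cell in the cycle. It does not show that the cell goes on to divide, since cardiomyocytes can also finish the cycle with more than 1 nucleus or with extra copies of the genome.

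Members made up 6.09% of cardiomyocytes with PD173074 (206 of 3385 cells), 4.09% without PD173074 (126 of 3082) and 2.59% in the 2D culture (180 of 6959). The exact binomial 95% intervals were 5.30% to 6.94%, 3.42% to 4.85% and 2.23% to 2.99% in the same order and did not overlap. These intervals cover counting error only, and with 1 sample a group no difference between groups could be tested. Membership needs 3 UMIs and is reached more easily in a deep cell. With every cardiomyocyte thinned to 3000 UMIs and members called again, the shares were 4.46% with PD173074 (3.73% to 5.28%), 3.16% without it (2.54% to 3.89%) and 1.74% in the 2D culture (1.42% to 2.12%), after 558, 364 and 1399 shallower cells were left out. The order of the groups stayed, but the intervals of both cardioid groups then overlapped. With cells thinned to 5000 UMIs, the intervals without PD173074 (3.64% to 5.65%) and in the 2D culture (2.98% to 4.45%) overlapped as well.

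**Figure D1:**
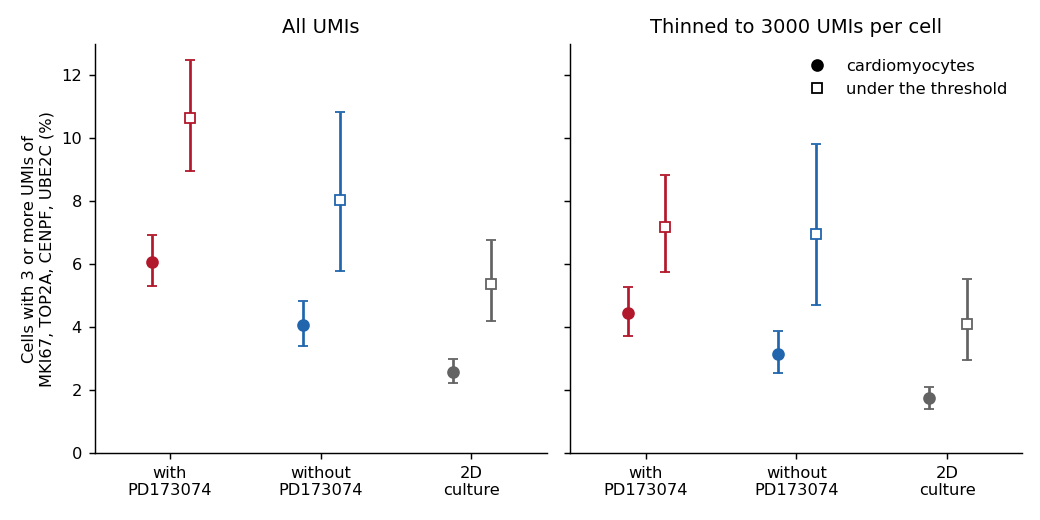
Share of cells with 3 or more UMIs of the 4 rule genes, in percent, among cardiomyocytes (filled circles) and among barcodes under the cardiomyocyte threshold (open squares), by group, with all UMIs (left) and after thinning each cell to 3000 UMIs (right); bars are exact binomial 95% intervals (counting error only). With all UMIs the cardiomyocyte shares were 6.09% with PD173074, 4.09% without PD173074 and 2.59% in the 2D culture.

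Repeat runs of the same droplets gave shares of 5.68% and 5.81% with PD173074, 3.60% to 4.45% without it and 2.49% and 2.51% in the 2D culture. Between 75.6% and 92.1% of the members of a first run were members again in another run of their group. Of members with 10 or more UMIs of the 4 genes, 113 to 115 of 117 were found again with PD173074, 74 to 75 of 76 without it and 61 to 62 of 66 in the 2D culture. Membership at the edge of the threshold therefore varied from run to run, and membership well above it varied little. Among barcodes under the cardiomyocyte threshold, cells with at least 3 UMIs of the 4 genes were more frequent, at 10.6% with PD173074, 8.04% without PD173074 and 5.38% in the 2D culture.

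The 4 genes that chose the members are described here without a test. MKI67 coats mitotic chromosomes, TOP2A untangles DNA, CENPF sits at the kinetochore and UBE2C feeds ubiquitin to the anaphase promoting complex. The median member held 11.5 UMIs of them with PD173074, 13 without PD173074 and 7 in the 2D culture, and the highest held 244, 120 and 76. All 4 genes were seen in 104 of 206 members with PD173074 (50.5%), in 77 of 126 without it (61.1%) and in 59 of 180 in the 2D culture (32.8%). The members of the 2D culture thus lay nearer the threshold than those of the cardioids. At exactly 3 UMIs lay 19, 10 and 39 members, and just outside, at 2 UMIs, lay 35, 38 and 67 cardiomyocytes. On the other threshold, 10, 9 and 28 members had TNNT2 and MYH6 between 0.15% and 0.2%, and 6, 10 and 22 cells with 3 or more UMIs of the 4 genes fell out between 0.1% and 0.15%.

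The genes did not contribute alike. MKI67 was seen in 73.8% of members with PD173074, 72.2% without PD173074 and 57.2% in the 2D culture. UBE2C was seen in 77.2%, 90.5% and 85.6% in the same order. It gave 33.2% of the UMIs of the 4 genes with PD173074, 40.4% without PD173074 and 46.7% in the 2D culture, while MKI67 gave 13.8%, 12.3% and 8.78%. By share of UMIs, members of the 2D culture were called on UBE2C more and on MKI67 less than members of either cardioid group, while by cells with a UMI UBE2C lay between those groups.

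The members were also described by markers that the rule did not use. At least 5 of 10 cardiomyocyte markers (MYL7, ACTN2, TTN, RYR2, MYBPC3, ACTC1, TNNI1, TNNC1, MYL4, NKX2-5) were seen in 205 of 206 members with PD173074, 123 of 126 without it and 180 of 180 in the 2D culture, against 98.2%, 98.2% and 98.0% of marker-free cells. Among barcodes under the cardiomyocyte threshold the shares were 28.1%, 29.5% and 42.2%. TTN, the giant spring of the sarcomere, had a UMI in 96.6%, 96.8% and 99.4% of members. With cells thinned to 3000 UMIs it was seen in 95.3%, 98.3% and 100% of members, against 19.3%, 28.1% and 41.9% of the cells under the threshold. Of the markers of other lineages, POU5F1 (pluripotent cells), PECAM1 and CDH5 (endothelium) and AFP (endoderm) were at 0 UMIs in every member, while other genes of those lists were present. The endothelial list summed to 45.9 CPM in members and 65.2 CPM in marker-free cells with PD173074, 75.4 and 130 CPM without PD173074, and 125 and 161 CPM in the 2D culture. The epithelial and endoderm list summed to 379 CPM in members and 484 CPM in marker-free cells with PD173074, 441 and 495 CPM without PD173074, and 432 and 470 CPM in the 2D culture. Both lists were thus at a lower sum in members than in marker-free cells. Other lists went the other way, given here with PD173074, without PD173074 and in the 2D culture. The pluripotency list was at 10.7 against 4.47, 7.73 against 5.21 and 7.97 against 5.06 CPM. The cartilage list was at 208 against 141, 150 against 117 and 211 against 145 CPM. Smooth muscle was also higher in every group. The stromal list was lower in both cardioid groups and higher in the 2D culture, at 1259 against 574 CPM. A count of 0 allows a share of members with a UMI of up to 1.46% with PD173074, 2.38% without PD173074 and 1.67% in the 2D culture; it sets no limit on cells that express the gene without a captured molecule. The cardiomyocyte markers were thus in nearly all members of each group, as in marker-free cells. Both sets were chosen by TNNT2 and MYH6, genes of the same cell type, so the lower shares under the threshold follow in part from the rule. A droplet that held a cardiomyocyte and another cell would show these markers too.

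Members were deeper than marker-free cells, with median UMIs of 9550.5 against 5919 with PD173074, 7454 against 5260 without it and 7392.5 against 4192 in the 2D culture. Their median share of mitochondrially encoded UMIs was lower, at 3.68% against 4.21%, 2.76% against 3.48% and 3.97% against 5.20%. Cells above 3 times the marker-free median of UMIs were 14.6% of members and 3.14% of marker-free cells with PD173074, 6.35% and 2.44% without it, and 15.6% and 3.39% in the 2D culture. A doublet caller marked 1, 2 and 0 barcodes in all, none of them a member, which is too few for a working call, and no doublets were removed. Cells with at least 0.2% of their UMIs in markers of other cell types were 20 members with PD173074 (9.71%, against 14.1% of marker-free cells), 7 without it (5.56%, against 7.10%) and 17 in the 2D culture (9.44%, against 9.67%). The part of doublets in the results was not tested beyond leaving those cells out.

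Within the members, other cell cycle genes differed in how they followed the UMIs of the 4 genes. Those 4 are genes of G2 and mitosis, so a climb of late mitosis genes with them follows from the choice of steps and is given as a description. The summed level of 5 late mitosis genes (CCNB1, CDC20, PLK1, AURKA, CENPE), in CPM, the counts scaled to a common total of summed UMIs, was 103 CPM in cells with 3 to 4 UMIs of the rule genes, 205 CPM with 5 to 9 and 1058 CPM with 10 or more in cardioids with PD173074. Without PD173074 the levels were 142, 494 and 972 CPM, and in the 2D culture 202, 301 and 845 CPM, against 19.0, 21.3 and 22.2 CPM in the marker-free cells of the 3 groups. With PD173074 the S phase list stood at 3226, 3301 and 3582 CPM over the same steps, without PD173074 at 3963, 5944 and 4742 CPM, and in the 2D culture at 3353, 2852 and 2129 CPM, against 729, 684 and 705 CPM in marker-free cells. Even cardiomyocytes with 1 UMI of the 4 genes, which are no members, held 1733, 2053 and 2000 CPM of the S phase list. Genes of DNA copying were thus above the marker-free level already below the threshold. Past it they showed no common course in the 3 groups, while late mitosis genes were highest in the cells with the most UMIs.

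**Figure D2:**
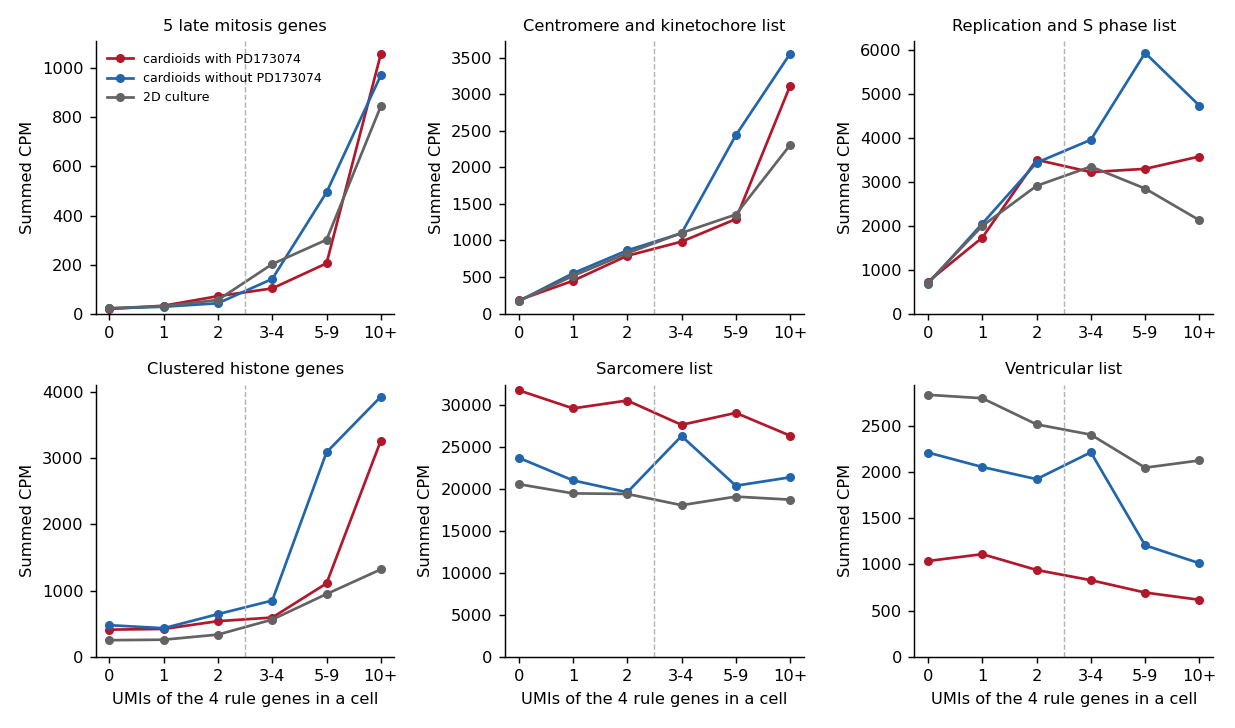
Summed level (CPM) of 6 gene lists against the UMIs of MKI67, TOP2A, CENPF and UBE2C held by a cardiomyocyte, 1 point per group and step, with a dashed line at the threshold for members. Late mitosis genes reached 1058 CPM with PD173074, 972 CPM without PD173074 and 845 CPM in the 2D culture at 10 or more UMIs, and the S phase list was already at 3508, 3441 and 2914 CPM at 2 UMIs.

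Counted per cell, 59.2% of members with PD173074, 60.3% without PD173074 and 50.6% in the 2D culture held at least 2 UMIs of the late mitosis genes, against 1.45%, 1.51% and 1.07% of marker-free cells. With every cell thinned to 3000 UMIs these shares were 38.0%, 34.8% and 33.9% of members. At least 2 UMIs of the S phase list were seen in 93.2%, 92.2% and 90.8% of thinned members, against 50.1%, 50.7% and 52.4% of thinned marker-free cells. Thinned marker-free cells reached the late mitosis cut in 0.285%, 0.327% and 0.296%. By this cut nearly all members held S phase RNA, and a smaller part reached the cut for late mitosis RNA. The S phase list has 36 genes and the late mitosis list 5, so the 2 shares cannot be set against each other as phases.

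For all other genes, members were set against marker-free cells by the log2 ratio of CPM with an exact conditional 95% interval. A gene counted as higher or lower where it reached 20 CPM in the higher set and its whole interval lay beyond 1.5-fold. With PD173074, 7.1% of the 8197 genes compared were higher in members and 1.46% lower. Without PD173074, 8.07% of 8452 were higher and 2.04% lower, and in the 2D culture 5.03% of 8209 were higher and 0.256% lower. Of 7487 genes compared in every group, 361 (4.82%) were higher in all 3 and 5 (0.0668%) lower in all 3. The members were chosen by cell cycle counts, so all ratios of this kind describe them and none is a test. The median ratio over all genes was −0.02, −0.04 and 0.02 in the 3 groups.

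**Figure D3:**
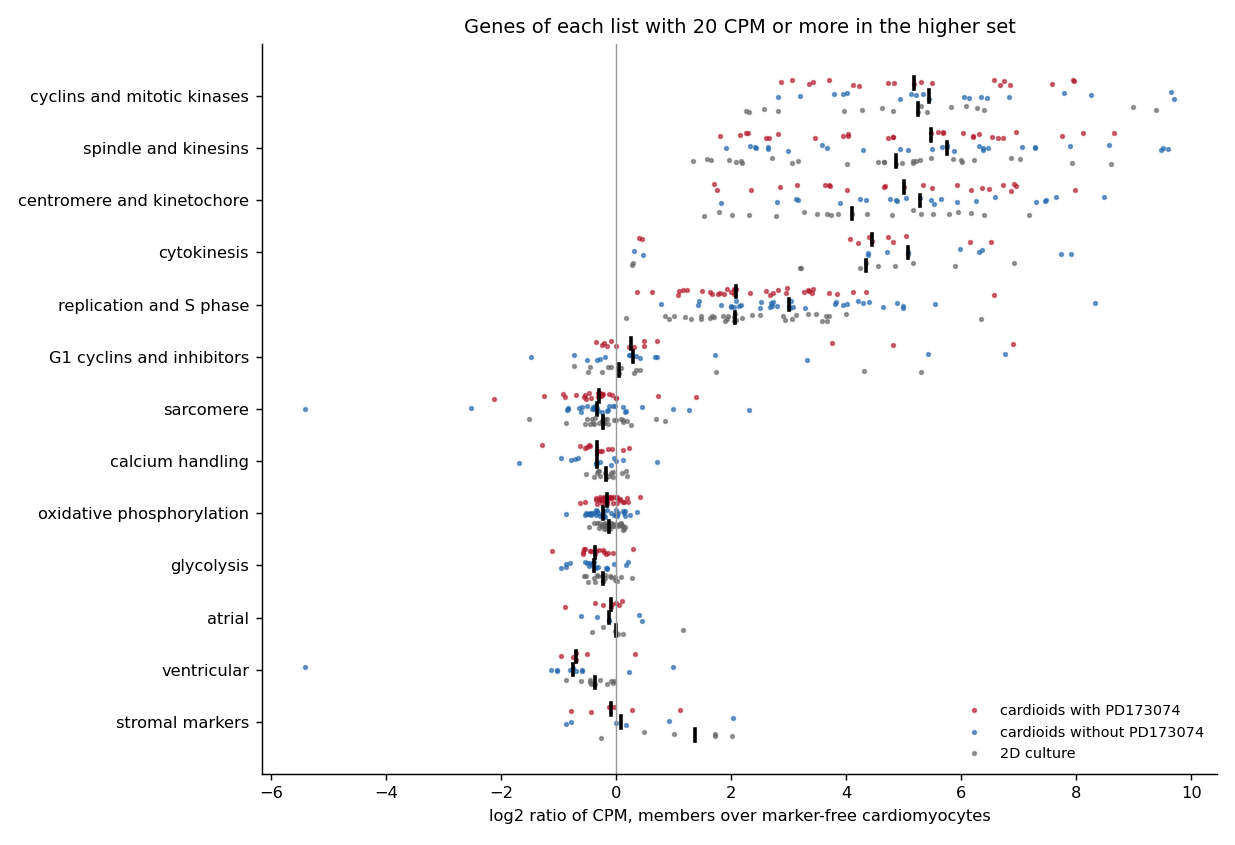
Log2 ratio of CPM, members over marker-free cardiomyocytes, for the genes of each list in the 3 groups, 1 point per gene at 20 CPM or more in the higher set, with a black bar at each median. The cyclin, spindle, centromere and cytokinesis lists have medians between 4.10 and 5.75, the S phase list between 2.06 and 3.0, and the sarcomere list between −0.34 and −0.23.

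The cyclins and kinases that start mitosis were far higher in members. Of 20 listed, 19 reached the level with PD173074, 19 without PD173074 and 17 in the 2D culture. All of those were higher in members, with medians of 5.17, 5.44 and 5.24; only 1 of them reached 20 CPM in marker-free cells, so the others entered the count through the members. CDK1, the kinase that drives entry into mitosis, was at 250 CPM in members and 2.63 CPM in marker-free cells with PD173074, at 292 and 1.32 CPM without it, and at 139 and 2.05 CPM in the 2D culture. CCNB1, its cyclin partner, was at 225 CPM in members and 5.74 CPM in marker-free cells with PD173074, 247 and 5.69 CPM without PD173074, and 148 and 5.28 CPM in the 2D culture. Both were low in marker-free cells, but not absent from cells outside either set: summed over the cyclin and kinase list, cardiomyocytes with 2 UMIs of the rule genes were at 727 CPM with PD173074, 647 CPM without PD173074 and 703 CPM in the 2D culture. Log2 ratios were 6.57, 7.79 and 6.09 for CDK1 and 5.29, 5.44 and 4.81 for CCNB1. CCNA2 (cyclin A2) had ratios of 7.95, 8.25 and 6.40, and PLK1 (polo-like kinase) 6.74, 6.83 and 5.82. AURKB, the kinase of the chromosomal passenger complex, had 255, 149 and 103 UMIs in members and 9, 3 and 4 UMIs in marker-free cells; without PD173074 its ratio was 9.65 (8.07 to 11.94).

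In the spindle list all 29 genes were higher in every group, 6 of them with 20 CPM or more also in marker-free cells, with medians of 5.46, 5.75 and 4.87. TPX2, which activates Aurora A on the spindle, was at 337 and 3.40 CPM in members and marker-free cells with PD173074, 353 and 2.28 CPM without it, and 162 and 3.66 CPM in the 2D culture. DLGAP5, which bundles spindle microtubules, had ratios of 8.11, 9.48 and 8.61, and KIF20A, a kinesin of the central spindle, 8.66, 9.60 and 7.92. The list of centromere and kinetochore genes, which hold chromosomes to the spindle, had 23 of 23, 23 of 23 and 21 of 21 genes higher (3 by their marker-free level), with medians of 5.01, 5.27 and 4.10. BIRC5 (survivin) was at 163 CPM in members and 1.31 CPM in marker-free cells with PD173074, 219 and 1.26 CPM without it, and 151 and 1.80 CPM in the 2D culture. CDCA8, its partner borealin, had ratios of 6.73, 8.49 and 7.17, and NDC80, which grips microtubules, 6.86, 7.30 and 6.17. Every spindle and kinetochore gene was thus higher in members of each group where it was compared. Most were compared only because they reached the level in members, which were chosen on mitosis genes, so this result was built into the choice.

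Chromosome separation was represented by the anaphase promoting complex and its substrates. Of 14 genes, 9 of 13 compared were higher with PD173074, 8 of 13 without it and 7 of 12 in the 2D culture, 7 genes reaching the level in marker-free cells. CDC20, the activator that releases anaphase, was at 139 and 0.827 CPM in members and marker-free cells with PD173074, 185 and 0.779 CPM without it, and 118 and 0.621 CPM in the 2D culture. PTTG1 (securin), the substrate whose removal frees the chromosomes, was at 668 CPM in members and 10.1 CPM in marker-free cells with PD173074, 801 and 9.11 CPM without PD173074, and 670 and 13.4 CPM in the 2D culture. The checkpoint protein MAD2L1 had lower ratios, of 3.74, 4.13 and 3.52. The list of condensins and chromatin proteins, which pack chromosomes, had 18 of 18, 18 of 18 and 16 of 17 genes higher, and 11 of them reached the level in marker-free cells too. HMGB2, a DNA-bending protein, was at 1399 CPM in members and 95.1 CPM in marker-free cells with PD173074, 1999 and 83.2 CPM without PD173074, and 927 and 70.6 CPM in the 2D culture, and was already seen in 40.5%, 35.6% and 26.8% of marker-free cells.

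Cytokinesis genes, which build and cut the cleavage furrow, were higher in 9 of 11 compared with PD173074, 10 of 12 without it and 9 of 11 in the 2D culture, with 2 or 3 reaching the level in marker-free cells. Anillin (ANLN), the scaffold of the contractile ring, was at 302 CPM in members and 13.8 CPM in marker-free cells with PD173074, 303 and 8.99 CPM without it, and 175 and 8.63 CPM in the 2D culture. ECT2, which activates the small GTPase RHOA at the furrow, was at 167 CPM in members and 7.98 CPM in marker-free cells with PD173074, 188 and 9.11 CPM without PD173074, and 118 and 12.9 CPM in the 2D culture. ANLN had a UMI in 73.8%, 74.6% and 61.1% of members, against 6.86%, 4.74% and 3.97% of marker-free cells. CEP55, which recruits the machinery of final separation, had ratios of 6.14, 7.74 and 6.91, and CIT (citron kinase) 6.51, 7.90 and 5.89. RHOA itself, used by every cell, had ratios of 0.40, 0.31 and 0.29 and was counted neither higher nor lower. RNA for the last step of division was thus in the members, not only that for chromosome separation.

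Many promoters of these genes carried the letters by which G2 and mitosis genes are known. RefSeq promoter windows on GRCh38.p14, from 250 bases before to 50 after a start site, were searched on both strands for the CHR (TTTGAA), for the CCAAT box (CCAAT, the site of NF-Y) and for an E2F site (TTTCCCGC). The windows of the 6 mitosis lists above (131 windows, 98 of 114 genes matched) held a CHR in 47.3%, a CCAAT box in 64.9% and the E2F letters in 3.82%. Over all 35116 windows the shares were 15.2%, 34.6% and 1.63%, and over the 9204 windows of genes compared in every group 11.4%, 35.2% and 2.55%. Among the rule genes, MKI67, TOP2A and CENPF were matched and each held a CHR and a CCAAT box; UBE2C and BIRC5 had no entry. The stretches printed were picked with their matches known, for holding a CHR; the same stretches of CCNA2 and AURKB hold none. The 150 bases before the start site are printed for MKI67, a rule gene, and for 4 genes of successive steps: CCNB2 (a cyclin), PLK1, CDC20 and ANLN. They are read 5′ to 3′ on the gene's strand, with CHR and CCAAT box in capitals on whichever strand they lie, so that TTCAAA and ATTGG are the same motifs on the other strand; in MKI67 the second CHR overlaps a CCAAT box. A match is a description of letters, not a shown binding site.
MKI67, chr10:128126424-128126573, minus strand: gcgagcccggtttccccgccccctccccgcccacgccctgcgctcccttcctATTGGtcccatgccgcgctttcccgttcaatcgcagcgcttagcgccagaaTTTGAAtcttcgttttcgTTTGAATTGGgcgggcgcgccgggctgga
CCNB2, chr15:59104996-59105145, plus strand: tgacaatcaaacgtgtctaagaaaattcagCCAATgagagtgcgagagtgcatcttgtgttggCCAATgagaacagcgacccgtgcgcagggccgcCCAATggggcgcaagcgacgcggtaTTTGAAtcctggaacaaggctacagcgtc
PLK1, chr16:23678739-23678888, plus strand: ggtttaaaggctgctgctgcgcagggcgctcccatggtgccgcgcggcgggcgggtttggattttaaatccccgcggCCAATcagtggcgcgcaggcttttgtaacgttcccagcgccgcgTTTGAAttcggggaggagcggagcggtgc
CDC20, chr1:43358831-43358980, plus strand: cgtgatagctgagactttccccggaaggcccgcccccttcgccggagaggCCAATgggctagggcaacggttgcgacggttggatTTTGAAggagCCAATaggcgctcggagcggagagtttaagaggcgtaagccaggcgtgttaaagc
ANLN, chr7:36389712-36389861, plus strand: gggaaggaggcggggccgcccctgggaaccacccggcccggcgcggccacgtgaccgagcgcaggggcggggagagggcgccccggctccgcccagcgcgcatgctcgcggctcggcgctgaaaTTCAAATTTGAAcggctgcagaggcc

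Of these 5 stretches, all but that of ANLN hold a CCAAT box as well. CCNB2, the gene of the printed stretch with 3 CCAAT boxes, was at 183 and 4.08 CPM in members and marker-free cells with PD173074, 242 and 3.0 CPM without it, and 134 and 1.74 CPM in the 2D culture.

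Genes of replication and S phase were also higher in members, by less. Of 36 listed, 33 of 35 compared were higher with PD173074, 34 of 35 without it and 31 of 34 in the 2D culture, with 11, 10 and 10 reaching the level in marker-free cells and medians of 2.08, 3.0 and 2.06. TYMS (thymidylate synthase) was at 619 CPM in members and 35.5 CPM in marker-free cells with PD173074, 883 and 45.1 CPM without it, and 448 and 51.4 CPM in the 2D culture. RRM2, which makes the DNA building blocks, had the largest ratios, of 6.57, 8.32 and 6.34. PCNA, the clamp of the replication fork, was at 130 CPM in members and 32.8 CPM in marker-free cells with PD173074, 224 and 28.1 CPM without PD173074, and 125 and 29.9 CPM in the 2D culture, and MCM2 of the helicase at 34.8 CPM in members and 10.2 CPM in marker-free cells with PD173074, 31.9 and 8.03 CPM without PD173074, and 32.5 and 7.67 CPM in the 2D culture. PCNA had a UMI in 16.8%, 13.5% and 12.6% of marker-free cells. The list was thus uneven in marker-free cells, where PCNA and TYMS passed 20 CPM and RRM2 lay at 2.14 CPM with PD173074, 0.839 CPM without PD173074 and 1.46 CPM in the 2D culture.

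Promoter windows of the S phase list differed in letters from those of the mitosis lists, with the CHR in 6.67%, the CCAAT box in 57.8% and the E2F letters in 24.4% of 45 windows (31 of 36 genes matched). Stretches that hold the E2F letters are shown for 4 of its genes, with E2F letters and CCAAT box in capitals: TYMS, PCNA, GINS2 (a helicase subunit) and UHRF1 (which copies DNA methylation marks).
TYMS, chr18:657503-657652, plus strand: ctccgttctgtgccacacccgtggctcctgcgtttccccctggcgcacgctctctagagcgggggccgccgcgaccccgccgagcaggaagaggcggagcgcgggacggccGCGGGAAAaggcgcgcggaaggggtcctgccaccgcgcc
PCNA, chr20:5126623-5126772, minus strand: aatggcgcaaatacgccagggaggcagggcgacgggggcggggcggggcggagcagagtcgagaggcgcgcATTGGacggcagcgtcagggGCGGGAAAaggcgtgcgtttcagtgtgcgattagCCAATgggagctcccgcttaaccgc
GINS2, chr16:85688955-85689104, minus strand: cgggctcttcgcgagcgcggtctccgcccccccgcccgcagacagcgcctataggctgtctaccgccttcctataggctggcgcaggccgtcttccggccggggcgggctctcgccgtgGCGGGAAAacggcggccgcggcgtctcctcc
UHRF1, chr19:4909351-4909500, plus strand: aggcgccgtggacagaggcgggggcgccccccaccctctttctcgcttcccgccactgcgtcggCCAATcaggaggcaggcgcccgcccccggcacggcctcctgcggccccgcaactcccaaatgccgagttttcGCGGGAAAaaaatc

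None of these 4 stretches holds a CHR. The sarcomere list, shown for contrast, held the CHR in 13.3% of 30 windows, the CCAAT box in 26.7% and no E2F letters.

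**Figure D4:**
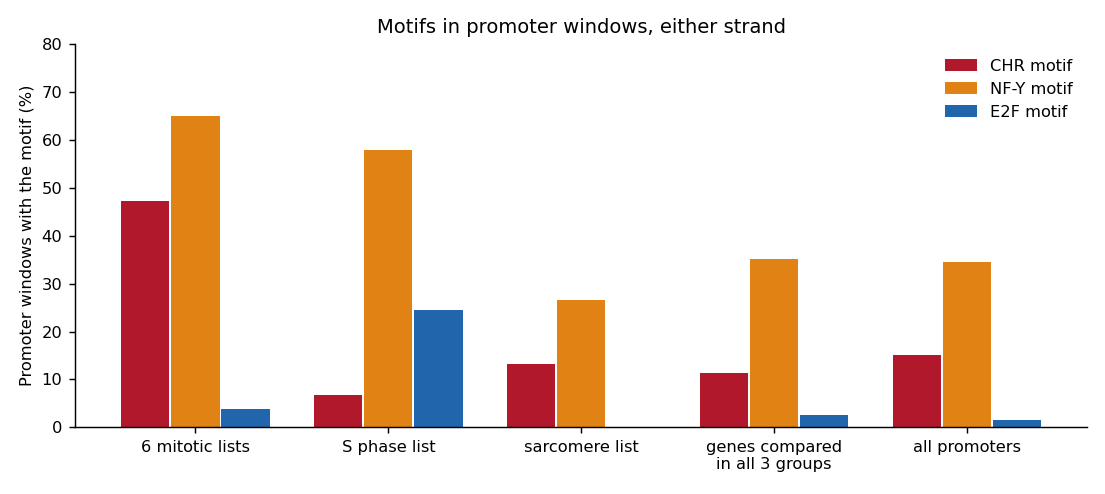
Share of promoter windows, in percent, that hold each motif on either strand, for the 6 mitosis lists, the S phase list, the sarcomere list, the genes compared in all 3 groups and all RefSeq windows; NF-Y stands for the CCAAT box. The CHR is in 47.3% of windows of the mitosis lists and the E2F letters are in 24.4% of windows of the S phase list, against 15.2% and 1.63% of all windows.

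Clustered histone genes, whose RNA is made in S phase and normally lacks the poly(A) tail that a 3′ kit captures, were looked at after their values were seen. Of 70, 11 of 15 compared were higher and 1 lower with PD173074, 18 of 22 were higher without it and 5 of 8 in the 2D culture; 7, 7 and 3 of those compared reached the level in marker-free cells, and the others entered through the members. HIST1H4C was at 1007 CPM in members and 56.0 CPM in marker-free cells with PD173074, 982 and 67.2 CPM without it, and 386 and 46.9 CPM in the 2D culture. HIST1H1B, a linker histone, was at 187 CPM in members and 1.75 CPM in marker-free cells with PD173074, 375 and 1.32 CPM without PD173074, and 83.4 and 0.838 CPM in the 2D culture. The histone genes are near copies of each other, so the split of reads among them is uncertain.

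Of 15 cell cycle transcription factors, 10 of 13 compared were higher with PD173074, 10 of 13 without it and 7 of 12 in the 2D culture; 5, 7 and 6 of those compared reached the level in marker-free cells, and the others entered through the members. MYBL2 was at 59.7 and 1.99 CPM in members and marker-free cells with PD173074, 68.6 and 1.14 CPM without it, and 40.5 and 1.52 CPM in the 2D culture. FOXM1 was at 39.9 CPM in members and 0.486 CPM in marker-free cells with PD173074, 42.5 and 0.360 CPM without PD173074, and 18.4 and 0.776 CPM in the 2D culture; in the 2D culture it stayed under the level of 20 CPM and was not counted. E2F1, which turns on S phase genes, had ratios of 1.90, 2.75 and 1.93. E2F7, a repressor of E2F targets, was higher too, with ratios of 3.56, 4.77 and 3.63.

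Most G1 cyclins and cell cycle inhibitors did not pass. Of 20, 3 of 14 compared were higher with PD173074, 4 of 16 higher and 1 lower without it, and 3 of 15 higher in the 2D culture, with medians of 0.26, 0.29 and 0.04. The 3 that were higher in every group were CDKN2C (p18, an inhibitor of CDK4 and CDK6), CDKN3 (a phosphatase of CDKs) and CDKN2D (p19). CDKN2C was at 40.8 and 0.340 CPM in members and marker-free cells with PD173074, 84.0 and 0.779 CPM without it, and 20.9 and 0.528 CPM in the 2D culture. CCND1 (cyclin D1) was at 27.9 CPM in members and 32.2 CPM in marker-free cells with PD173074, 35.7 and 100 CPM without PD173074, and 38.6 and 54.7 CPM in the 2D culture, and counted as lower without PD173074 alone, at −1.49; the difference of that ratio between groups was not tested. CCND2, the other D cyclin named, had ratios of −0.17, −0.74 and −0.73. CDKN1A (p21) and CDKN1C (p57), the brakes known from arrested cardiomyocytes, had ratios of 0.53, 1.01 and 0.88 and of −0.01, −0.29 and 0.08, and neither was counted in any group. CDKN1A was low throughout, at 4.29 CPM in members and 2.97 CPM in marker-free cells with PD173074, 11.6 and 5.75 CPM without PD173074, and 17.2 and 9.32 CPM in the 2D culture.

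Outside the lists other than that of the clustered histones, the genes highest in members of every group by the mean of their 3 ratios were PBK, PIMREG, NEIL3, GTSE1, KIF18B, HIST1H1B, CDCA3, NMU, ESCO2 and PRR11. PBK, a mitotic kinase, was at 106 CPM in members and 0.584 CPM in marker-free cells with PD173074, 157 and 0.240 CPM without it, and 76.1 and 0.373 CPM in the 2D culture. NMU encodes neuromedin U, a secreted neuropeptide, and is not a known part of the division machinery. It was at 55.8 and 0.146 CPM in members and marker-free cells with PD173074, 59.9 and 0.539 CPM without it, and 34.3 and 0.559 CPM in the 2D culture, with a UMI in 30.6%, 25.4% and 21.7% of members. Its ratio with PD173074, where marker-free cells held 3 UMIs, was 8.58 (7.0 to 10.88).

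Members and marker-free cells both had to reach the cardiomyocyte threshold of TNNT2 and MYH6. A cell with little RNA of these sarcomere genes could therefore not be a member. Whether dividing cells keep their sarcomere RNA was thus not tested. Among the cells chosen, sarcomere RNA was present in the members, at a slightly lower level than in marker-free cells. Summed over the 33 genes of the list it was 27102 CPM in members and 31774 CPM in marker-free cells with PD173074, 21802 and 23728 CPM without it, and 18633 and 20579 CPM in the 2D culture. Of 26 genes compared with PD173074, 1 was higher and 4 lower, of 29 without it 3 were higher and 2 lower, and of 28 in the 2D culture none was higher and 2 were lower. The medians were −0.31, −0.34 and −0.23, against −0.02, −0.04 and 0.02 over all genes. TTN was at 3311 CPM in members and 4098 CPM in marker-free cells with PD173074, 2711 and 3571 CPM without PD173074, and 2786 and 3628 CPM in the 2D culture, and its ratios of −0.31, −0.40 and −0.38 did not pass. MYBPC3 (cardiac myosin binding protein C) was at 72.5 CPM in members and 138 CPM in marker-free cells with PD173074, where its ratio of −0.92 passed; the ratios of −0.85 and −0.54 in the other groups did not. The other genes lower with PD173074 were CSRP3 (muscle LIM protein), TNNI3 (the mature cardiac troponin I) and TCAP, and the 3 higher without PD173074 were ACTA1 (skeletal actin), ANKRD1 and MYH7. Of the last 2, 56 of 71 and 60 of 78 UMIs lay in 1 member, and both ratios fell below 0 under other settings. Of the genes that define a cardiomyocyte here, TNNT2 was at 1788 CPM in members and 2924 CPM in marker-free cells with PD173074, 2093 and 3110 CPM without PD173074, and 1601 and 2149 CPM in the 2D culture, and MYH6 at 2794 CPM in members and 3124 CPM in marker-free cells with PD173074, 1831 and 2002 CPM without PD173074, and 1554 and 1653 CPM in the 2D culture; both served in the rule, so their levels support nothing. TNNT2 was counted lower with PD173074.

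TCAP (telethonin), the Z-disc protein that ties titin filaments together, was the list's exception. It was at 18.9 CPM in members and 82.6 CPM in marker-free cells with PD173074, 17.4 and 101 CPM without it, and 35.6 and 102 CPM in the 2D culture. Members held 44, 18 and 58 UMIs. Its ratios were −2.13 (−2.59 to −1.70), −2.54 (−3.29 to −1.87) and −1.52 (−1.92 to −1.14). In cells thinned to 3000 UMIs, TCAP was seen in 3.6%, 4.3% and 5.7% of members, against 18.2%, 23.3% and 23.8% of marker-free cells. It was lower under every alternative setting that gave a ratio. The other genes lower in all 3 groups were LRRC39 (a protein of the sarcomere's M-band), CRELD1 (linked to heart septation), GALNTL6 (a sugar transferase) and the unnamed transcript AC008415.1. LRRC39 was at 38.2 CPM in members and 91.7 CPM in marker-free cells with PD173074, 29.9 and 72.5 CPM without PD173074, and 28.2 and 58.0 CPM in the 2D culture. TCAP and LRRC39 were thus counted lower in the members of every group. TTN was also under the marker-free level, with ratios of −0.31, −0.40 and −0.38, but passed in no group.

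Genes of calcium handling had medians of −0.34, −0.34 and −0.18 and were lower in 1 of 13 compared with PD173074, 3 of 14 without it and 0 of 15 in the 2D culture. RYR2, the calcium release channel, was at 1599 and 1894 CPM in members and marker-free cells with PD173074, 1463 and 1773 CPM without it, and 1343 and 1517 CPM in the 2D culture, and passed in no group. HRC, a calcium store protein, was the 1 gene lower with PD173074, at −1.30. Ion channels and junctions had medians of 0.01, −0.20 and 0.02, with 1 gene, the calcium channel CACNA1D, higher without PD173074 and none elsewhere; the sign of the medians with PD173074 and in the 2D culture changed with the scaling. Most genes of contraction and excitation were thus counted neither higher nor lower. In both cardioid groups, a larger part of the calcium list was nonetheless lower than of all genes compared. Among all genes, 2.04% were lower in cardioids without PD173074 and 1.46% in those given the inhibitor. For the latter group the difference rests on HRC alone. No gene of the ion channel and junction list was lower in any group.

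Few energy genes passed. Oxidative phosphorylation had medians of −0.16, −0.24 and −0.12 over 35 genes, with 1 gene (UQCRC2, of respiratory complex III, at −0.88) lower without PD173074 and none elsewhere. Glycolysis had medians of −0.37, −0.38 and −0.23, with 1 of 16, 1 of 19 and 0 of 19 compared lower: ALDOC (an aldolase) with PD173074 at −1.12 and SLC2A3 (a glucose transporter) without it at −0.97. Genes of fuel use and maturation had medians of −0.25, −0.59 and −0.26. CKMT2 (mitochondrial creatine kinase) was lower in cardioids without PD173074, at −1.48, and in the 2D culture, at −1.15, and PGAM2 and FABP3 (a muscle phosphoglycerate mutase and a fatty acid carrier) were lower with PD173074, at −1.33 and −0.93.

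Atrial genes differed little between members and marker-free cells, and ventricular genes tended to lower ratios. The atrial list had medians of −0.09, −0.13 and 0.00 between members and marker-free cells. MYL7 (atrial myosin light chain) was at 8061 CPM in members and 8149 CPM in marker-free cells with PD173074, 3700 and 2728 CPM without it, and 1836 and 1699 CPM in the 2D culture. The ventricular list had medians of −0.70, −0.76 and −0.38. It was lower in 2 of 6 genes compared with PD173074, in 5 of 11 without it, where 1 was higher, and in 1 of 12 in the 2D culture. FHL2, a cofactor of muscle genes, was at 298 CPM in members and 483 CPM in marker-free cells with PD173074, 511 and 1120 CPM without PD173074, and 1003 and 1364 CPM in the 2D culture, with ratios of −0.70, −1.13 and −0.44, and passed in both cardioid groups. In cells thinned to 3000 UMIs, at least 2 UMIs of the ventricular list were seen in 53.1% of members with PD173074, 73.0% without PD173074 and 96.0% in the 2D culture, against 72.2%, 93.0% and 98.4% of marker-free cells. In both cardioid groups the members thus carried less ventricular RNA than the marker-free cells beside them, and in the 2D culture the shares lay closer.

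MYL2, the ventricular myosin light chain, had 1 UMI in the 206 members with PD173074, 1 UMI in the 126 members without it and 140 UMIs in the 180 members of the 2D culture, against 79, 687 and 2835 UMIs in marker-free cells. Its ratios were −3.16 (−8.48 to −0.64), −5.41 (−10.72 to −2.93) and −0.04 (−0.29 to 0.21). Of the 140 UMIs, 99 lay in 1 member, and 16 members had any. MYL2 was rare in marker-free cells too, with a UMI in 1.22%, 3.34% and 8.0% of them. Other ratios of chamber and stress genes rested on 1 cell: 60 of 78 UMIs of MYH7 (beta myosin heavy chain) without PD173074, 27 of 42 UMIs of NPPA (atrial natriuretic peptide) and 215 of 222 UMIs of NPPB in the 2D culture, and 56 of 71 UMIs of ANKRD1 (a stretch-responsive titin partner) without PD173074. With PD173074, ANKRD1 was at 42.9 and 16.4 CPM with a UMI in 21 members, and its ratio was 1.39.

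Sinus node and conduction genes had 1 of 15 compared lower with PD173074, 1 of 12 higher and 1 lower without it and none of 8 in the 2D culture. The gene lower in both cardioid groups was RSPO3, an enhancer of Wnt signalling, at 57.9 CPM in members and 123 CPM in marker-free cells with PD173074 and 560 and 1066 CPM without it. None of the heart transcription factors compared was counted in any group. MEIS1, which is tied to cell cycle exit in mouse cardiomyocytes, was at 149 CPM in members and 158 CPM in marker-free cells with PD173074, 100 and 153 CPM without PD173074, and 126 and 150 CPM in the 2D culture, with ratios of −0.08, −0.60 and −0.25. TEAD1, the partner of YAP1 on DNA, had ratios of 0.37, 0.46 and 0.47.

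Growth signalling lists were close to level. Of the growth factor and Hippo genes, 0 of 17, 1 of 16 and 0 of 15 compared were higher, the 1 being CCN1, a YAP target, at 1.30 without PD173074. YAP1 was at 368 and 369 CPM in members and marker-free cells with PD173074, 314 and 295 CPM without it, and 255 and 258 CPM in the 2D culture. ERBB4, the neuregulin receptor, had ratios of −0.26, −0.36 and −0.23. The list of fibroblast growth factor and ERK feedback genes had none of 6, 8 and 9 compared counted, with medians of −0.06, 0.08 and −0.07. Immediate early genes, which rise with dissociation, had 1 lower with PD173074 (KLF2) and 1 higher without it (KLF6), and the sign of the median with PD173074 changed with the scaling.

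Stromal markers (10 genes, 6 compared in each group) summed to 709 CPM in members and 798 CPM in marker-free cells with PD173074, 424 and 444 CPM without it, and 1259 and 574 CPM in the 2D culture. FBLN1 (fibulin 1, a matrix protein) was the 1 marker higher in every group, at 63.5 CPM in members and 29.4 CPM in marker-free cells with PD173074, 44.4 and 10.9 CPM without PD173074, and 39.9 and 9.94 CPM in the 2D culture, and it had a UMI in 36.4%, 31.0% and 26.1% of members against 9.08%, 5.35% and 4.65% of marker-free cells. COL1A1 and COL1A2 were higher in the 2D culture alone, at 1.71 and 1.72, with 170 of 715 UMIs of COL1A1 in 1 member. DCN, a defining stromal gene, was seen in 2.4% of members with PD173074, 1.6% without PD173074 and 2.8% in the 2D culture. With cells of at least 0.2% other-type markers left out, the ratios of FBLN1 were 2.08, 2.51 and 2.33, while that of COL1A1 in the 2D culture was 0.09. Smooth muscle, endothelial, epithelial and neural markers had no gene counted in any group, and cartilage markers had 2 of 4, 1 of 2 and 1 of 2 higher. Pluripotency markers summed to 10.7, 7.73 and 7.97 CPM in members, against 4.47, 5.21 and 5.06 CPM in marker-free cells, and blood markers in members to at most 3.07 CPM.

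Members with PD173074 were then compared with members without PD173074. Both this comparison and the next use the members without PD173074, so the 2 share that sample. Of 8330 genes, 2.87% were higher and 2.17% lower with PD173074, around a median of −0.08. A value given as "beside" a ratio or median is the same measure in marker-free cells. Atrial genes were higher in members with PD173074 in 5 of 7 compared, with a median of 1.12, beside 1.58 in marker-free cells. MYL7 was at 8061 CPM in members with PD173074 and 3700 CPM in members without it, a ratio of 1.12 beside 1.58. NR2F2, the transcription factor of atrial identity, was at 397 CPM with PD173074 against 115 CPM without PD173074, a ratio of 1.79 beside 2.26. SHOX2, a factor of the sinus node, was at 57.9 CPM with PD173074 against 8.69 CPM without PD173074, a ratio of 2.74 beside 2.90. Ventricular genes were lower in 6 of 10 compared, with a median of −1.46 beside −1.43, and MASP1, of the complement system, was at 2.15 CPM with PD173074 against 102 CPM without PD173074, a ratio of −5.58 beside −5.16. Members thus differed between the cardioid groups in chamber genes in the direction in which their marker-free neighbours did.

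Other genes with large ratios were FGF12, a modulator of sodium channels, at 230 CPM in members with PD173074 and 25.1 CPM in members without it (3.20, beside 3.07) and RSPO3 at 57.9 CPM with PD173074 against 560 CPM without PD173074 (−3.27, beside −3.12). MYH11 (smooth muscle myosin) had 66 UMIs in members with PD173074 and 1 UMI in members without it, a ratio of 4.87 (2.35 to 10.20) beside 1.96. WNT5A, a Wnt ligand, had 53 UMIs with PD173074 and 1 UMI without it, a ratio of 4.56 (2.02 to 9.89) beside 1.37. CCND2 was at 203 CPM with PD173074 against 83.1 CPM without PD173074, a ratio of 1.29 (0.95 to 1.64) beside 0.72. Glycolysis genes were lower in 4 of 17 compared (median −0.62, beside −0.59) and immediate early genes higher in 9 of 20 (median 0.69, beside 1.13).

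The division genes differed less between the cardioid groups. None of the 6 mitosis lists had a gene higher in members with PD173074, and 5 genes of 114 listed were lower: 2 of the centromere list, 2 of the condensin list and 1 of the anaphase promoting complex list. The medians lay between −0.15 and −0.40, beside −0.07 to 0.45 in marker-free cells. Those marker-free medians were not limited to genes at the level there, which 1 to 12 genes of each list reached. In the cyclin and kinase list, the 1 gene that reached it was counted lower with PD173074 in marker-free cells. Marker-free cells were chosen for holding no UMI of the rule genes, so their medians could show little of a difference in division genes. CDK1 was at 250 CPM in members with PD173074 and 292 CPM in members without it, CCNB1 at 225 CPM with PD173074 against 247 CPM without PD173074, and ANLN at 302 CPM with PD173074 against 303 CPM without PD173074; none passed. The S phase list had 1 of 35 lower and a median of −0.43, beside 0.28 in marker-free cells, where 12 of its genes reached the level. Clustered histone genes were lower in 7 of 21 compared, with a median of −0.80 beside −0.19, and HIST1H1B was at 187 CPM with PD173074 against 375 CPM without PD173074. Members thus made up a larger share of cardiomyocytes with PD173074 in the counts as deposited, while the members' share of RNA from mitosis genes was about the same as without it, or lower. Members with PD173074 were also deeper, at a median of 9550.5 UMIs against 7454. At 3 to 4 UMIs their rule genes were at 369 CPM, against 583 CPM without PD173074, and at 10 or more UMIs at 3095 against 3067 CPM. The medians of the lists therefore compare members of unlike depth.

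Members without PD173074 were compared with members of the 2D culture in the same way. Of 8396 genes, 2.56% were higher and 1.3% lower without PD173074, around a median of 0.04. More division genes passed here than between the cardioid groups. The cyclin and kinase list was higher in 6 of 19 compared (median 0.87), the spindle list in 10 of 29 (0.75), the centromere and kinetochore list in 10 of 23 (1.04), the condensin list in 6 of 18 (0.83), the anaphase promoting complex list in 1 of 13 (0.53), the cytokinesis list in 5 of 12 (0.80) and the S phase list in 11 of 35 (0.80); no gene of these lists was lower. In marker-free cells the medians of the same lists lay between −0.10 and 0.13. They were not limited to genes at the level there, which 1 to 12 genes of each list reached. Those cells were chosen for holding no UMI of the rule genes. Their medians could therefore show little of a difference in division genes. CDK1 was at 292 CPM in members without PD173074 and 139 CPM in members of the 2D culture (1.07), AURKB at 144 CPM without PD173074 and 63.2 CPM in the 2D culture (1.19), CCNA2 at 219 CPM without PD173074 and 105 CPM in the 2D culture (1.06) and RRM2 at 269 CPM without PD173074 and 118 CPM in the 2D culture (1.18). CCNB1, at 247 CPM without PD173074 and 148 CPM in the 2D culture, and CDC20, at 185 CPM without PD173074 and 118 CPM in the 2D culture, did not pass. CDKN2C was at 84.0 CPM without PD173074 and 20.9 CPM in the 2D culture, a ratio of 2.01.

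Members of the 2D culture lay nearer the rule's threshold, with 36.7% of them at 10 or more UMIs of the rule genes, against 60.3% of members without PD173074. With at least 5 UMIs asked of every member, the medians were 0.65 for cyclins and kinases, 0.62 for the spindle list, 0.80 for the centromere list and 0.98 for the S phase list. Among members with 10 or more UMIs, the centromere list was at 3552 CPM without PD173074 and 2304 CPM in the 2D culture, and the S phase list at 4742 CPM without PD173074 and 2129 CPM in the 2D culture, while the late mitosis genes were at 972 CPM without PD173074 and 845 CPM in the 2D culture. At 3 to 4 UMIs the cyclin and kinase list was at 1082 CPM without PD173074 and 1126 CPM in the 2D culture, the centromere list at 1099 and 1103 CPM, and the late mitosis genes at 142 and 202 CPM. The spindle list was at 8400 CPM without PD173074 and 5816 CPM in the 2D culture at the same step, and the S phase list at 3963 and 3353 CPM. Nearest the threshold, the cyclin, centromere and late mitosis genes were thus no higher without PD173074 or lower, while the spindle and S phase lists were higher. That step held 20 cells without PD173074, at a median of 4321.5 UMIs, and 60 cells in the 2D culture, at 7738.5 UMIs. The rule genes there were at 583 and 387 CPM. At 5 to 9 UMIs all these lists were higher without PD173074. The cyclin list was then at 2518 and 1452 CPM, the centromere list at 2437 and 1354 CPM and the late mitosis genes at 494 and 301 CPM. Clustered histone genes were higher in 19 of 21 compared, with a median of 2.14 beside 1.06 in marker-free cells, and HIST1H4C was at 982 CPM without PD173074 and 386 CPM in the 2D culture. The labels do not say whether both libraries used the same chemistry, so the part of the chemistry in this difference cannot be told apart from that of the culture.

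**Figure D5:**
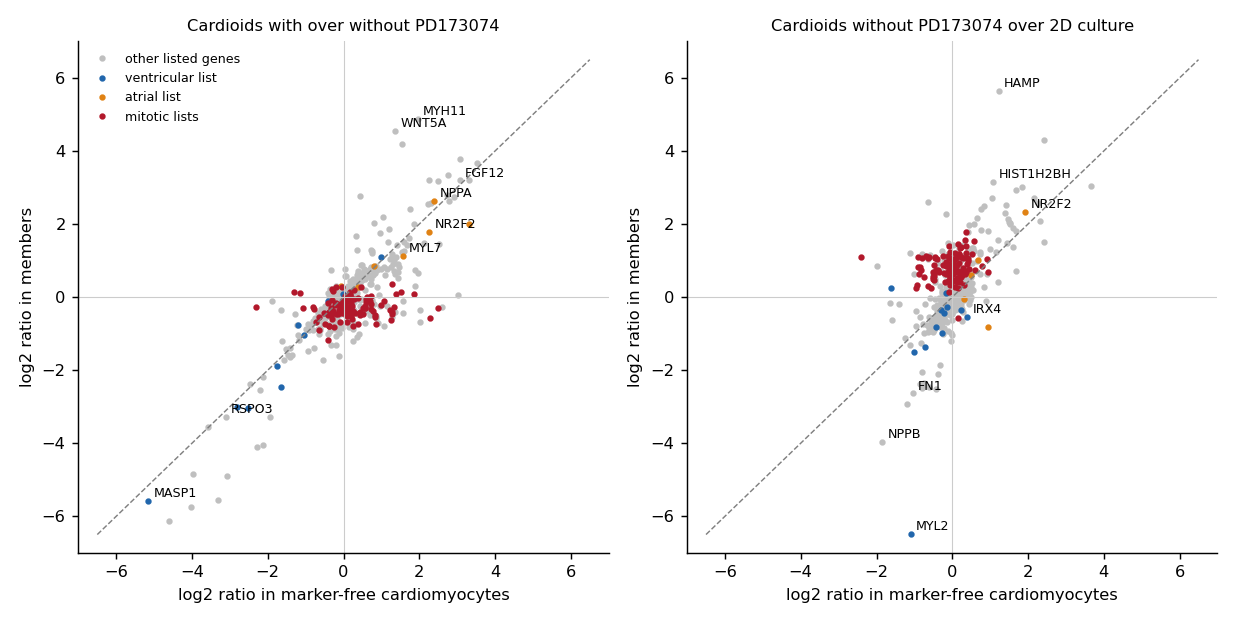
Log2 ratio of CPM between groups in members (vertical axis) against the same ratio in marker-free cardiomyocytes (horizontal axis), 1 point per gene with the ventricular, atrial and mitotic lists in colour; left, with PD173074 over without PD173074, right, without PD173074 over 2D culture. MYL7 lies near the dashed line of equal ratios, while MYL2, also a chamber gene, lies far below it in the right panel. Most genes of the mitotic lists in the right panel lie above 0 in members.

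Among other genes, NR2F2 was at 115 CPM in members without PD173074 and 22.7 CPM in members of the 2D culture, a ratio of 2.34 beside 1.92 in marker-free cells, and MYL7 at 3700 CPM without PD173074 and 1836 CPM in the 2D culture, 1.01 beside 0.68. HAMP, the iron hormone hepcidin, had 32 UMIs without PD173074 and 1 UMI in the 2D culture, a ratio of 5.66 (3.07 to 11.00) beside 1.23. Lower without PD173074 were FN1 (fibronectin), at 50.2 CPM without PD173074 and 311 CPM in the 2D culture (−2.63, beside −1.04), and LGALS1 (galectin 1), at 17.4 CPM without PD173074 and 98.1 CPM in the 2D culture (−2.50, beside −0.81). With cells of at least 0.2% other-type markers left out, the ratio of FN1 was −0.67 and no longer passed. MYL2, with 1 UMI in members without PD173074 and 140 UMIs in members of the 2D culture, had a ratio of −6.47 (−11.79 to −3.97) beside −1.10, 99 of those UMIs lying in 1 cell. Ventricular genes were lower in 3 of 12 compared, with a median of −0.48 beside −0.28.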

How the data were processed

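RNA of single H9-derived cells at day 42.5 was counted in 11 libraries. The authors deposited matrices of raw UMI counts per gene and barcode; the submitters' processing notes name Cell Ranger 7.0.0 and the build hg38. Per the labels' protocols, a 3′ droplet kit was used. Libraries of a group shared nearly all barcodes and were treated as repeat runs of 1 sample, so groups were compared with no test. Cells needed 1000 UMIs, 500 genes and at most 30% mitochondrially encoded UMIs. No doublets were removed: Scrublet in scanpy 1.11.5, at an expected rate of 0.06, marked at most 0.0561% of barcodes. UMIs were summed per group and set with numpy 2.4.6 and pandas 2.3.3, scaled to CPM and compared by log2 ratio with exact conditional binomial 95% intervals (scipy 1.17.1), which cover counting error only. A set at 0 counts was put at a floor of 3 counts over the set. A gene was called at 20 CPM or more in the higher set with its interval beyond 1.5-fold. Thinning drew 3000 UMIs per cell, leaving out shallower cells. The contrast code was tested on simulated data.

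The members and gene lists were chosen with earlier results of these data known. Named genes were the rule genes, a short fixed set, up to 5 per list with the largest mean ratio among genes at 20 CPM in every group, and the 10 highest and 10 lowest outside the lists or between groups; clustered histones, MYH7, NPPB, TPX2, CCNB2, GINS2, UHRF1, CSRP3, CKMT2, YAP1, RHOA, DLK1 and genes named as the few that passed in a list were named after their values were seen. Promoter windows came from RefSeq. Alternatives varied the rule's thresholds, depth, scaling, floor, fold, other-type cells and the run.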

Additional observations from a re-analysis of the deposited data

Results flagged for a closer look

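Calls in opposite directions between groups were found for 2 genes, and for both the difference was not tested. MYH7 had a log2 ratio of members over marker-free cells of 0.99 without PD173074 (75.4 and 38.1 CPM) and of −0.89 in the 2D culture (63.8 and 118 CPM), with 0.19 and no call with PD173074. Without PD173074, 60 of its 78 UMIs in members lay in 1 of the 6 members that had any. DLK1, a secreted and membrane-bound Notch pathway protein, had a ratio of −1.62 with PD173074 (16.7 and 51.4 CPM) and of 1.81 in the 2D culture (21.5 and 6.12 CPM), with no call without PD173074. Its UMIs came from 8, 2 and 7 members, and 25 of 35 in the 2D culture and 20 of 21 without PD173074 lay in 1 member each.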

How the results depend on the processing

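Shares of members followed the threshold. At 2 UMIs they were 7.12%, 5.32% and 3.55% (with PD173074, without it, 2D culture); at 5 UMIs 4.73% with PD173074 and 1.72% in the 2D culture, where 4 UMIs gave 2.03%. TNNT2 and MYH6 at 0.3% gave 3.11% without PD173074 and 1.74% in the 2D culture. At 1% the shares were 0.274% (1 of 365 cells), 0.870% (1 of 115) and 0% (0 of 41), too few members to order the groups. Thinning to 2000 UMIs gave 3.28%, 2.64% and 1.19%, to 3000 UMIs 4.46%, 3.16% and 1.74%, and to 5000 UMIs 6.35%, 4.57% and 3.66%. At 5000 UMIs, 4284 cardiomyocytes of the 2D culture were left out and 2675 remained. The other alternatives moved no share beyond its interval.

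Counts of genes past the rule, 702, 854 and 434 in members against marker-free cells, 366 of them in all 3 groups, were 420, 566, 242 and 204 at a floor of 50 CPM, 1305, 1486, 776 and 563 at a lower fold threshold and 407, 512 and 289 at 2-fold; with no floor they were 1116 with PD173074 and 665 in the 2D culture. Between members the counts of 420 (with over without PD173074) and 324 (without PD173074 over 2D culture) were 897 and 820 at that lower threshold and 194 and 82 at 2-fold, and the second was 198 in cells of 5000 to 15000 UMIs.

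Single genes reversed in 13 cases. MYH7 without PD173074 was −1.03 at 5 UMIs, −0.42 at 0.3% and −0.50 in run 3. In cells of 5000 to 15000 UMIs, ANKRD1 without PD173074 was −2.21, COL1A1 in the 2D culture −0.069, DLK1 in the 2D culture −3.36, COL6A3 between cardioid groups −1.25 and FGF12 between members without PD173074 and of the 2D culture −0.14. DLK1 in the 2D culture was −0.15 in run 3. With other-type cells left out, NPPA in the 2D culture was −0.20, COL6A3 −0.027 and NPPB between members without PD173074 and of the 2D culture 0.86, which was 1.89 at 0.3%. The cause was not tested. Ratios at 1% could not be fitted, with 1, 1 and 0 members. No paired analysis was possible because each group was 1 sample and its repeat runs held the same droplets.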
